A study of Arabidopsis thaliana with 6 samples.

Results

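The SAUR (small auxin up RNA) genes of Arabidopsis thaliana were described in leaf RNA sequencing of transgenic lines and of wild type. A list of 60 SAUR loci was looked up in the deposited table of 21981 genes. The table held 57 of them, and AT4G31320, AT3G43120 and AT5G27780 were not analysed here. The loci described in depth were selected on measured values, by a mean of at least 1 FPKM (sequenced fragments relative to transcript length and to the size of the library) over the 6 samples, and 42 reached it. That mean used both groups together, and 8 of the 42 reached it only through wild type, with a transgenic mean under 1 FPKM. All 42 had a wild-type mean of at least 1 FPKM and 34 also had a transgenic mean of at least 1 FPKM, so counts over the 42 describe the expressed loci and are not counts over the family.

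Leaves of 4-week-old plants of the Col-0 accession were sampled, in 3 samples titled as transgenic lines 1, 2 and 3 and in 3 wild-type replicates. The transgene, its promoter and whether the lines are independent insertions are not named in the labels, and the series title concerns endoreplication and trichome branching. Plants of both groups were raised on sucrose-containing medium before transfer to soil under long days. Drought treatment is mentioned in the same words for all 6 samples, so a difference in watering and a difference in genotype cannot be told apart from the labels. The 3 wild-type replicates are not stated to be separate plants, so the spread among them may be technical. The p-values compare the group difference with a spread within groups that pools these replicates and the 3 lines. Such p-values speak only of these 6 samples.

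SAUR genes are a large plant family of short, mostly intronless genes, many of them induced within minutes by auxin. Several SAUR proteins bind and inhibit phosphatases of the PP2C.D clade, which otherwise remove an activating phosphate from the proton pumps (H+-ATPases) of the plasma membrane. Through this step they promote acidification of the cell wall and cell expansion, and in leaves and seedlings their transcription is set by auxin, brassinosteroid, gibberellin, light and temperature. Many SAUR genes lie in tandem arrays of close duplicates.

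Most of the expressed SAUR genes were lower in the transgenic lines, and a small set was higher. Of the 42 tested, 28 fell and 5 rose in transgenic leaves, and 9 were not called, in limma on log2(FPKM + 1) at a Benjamini-Hochberg adjusted p under 0.05 over 17093 genes. Among all genes tested, 15.7% were called lower and 25.0% higher. The median log2 fold change, transgenic over wild type, was -1.01 over the 42 SAUR genes and 0.03 over all genes tested. The 6 values of 33 of the 42 did not overlap between groups, beside 52.2% of all genes tested. Changes of at least 2-fold on the log2(FPKM + 1) scale were seen in 22 SAUR genes that were lower and in 1 that was higher, beside 585 lower and 738 higher among the 17093 genes tested. Among the 34 with a transgenic mean of at least 1 FPKM, 21 fell and 5 rose.

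Summed over all 57 loci in the table, SAUR transcripts amounted to 321.7, 341.0 and 297.4 FPKM in transgenic lines 1, 2 and 3, against 505.2, 487.6 and 503.2 FPKM in wild-type replicates 1, 2 and 3. Every line lay below every wild-type replicate, and on the deposited scale the transgenic mean was 0.642 of the wild-type mean. SAUR78 (AT1G72430) alone gave 77.9 of the transgenic mean of 320.1 FPKM and 103.1 of the wild-type mean of 498.7 FPKM. The 5 genes that rose moved the other way, with sums of 105.1, 99.0 and 96.3 FPKM in the lines, against 61.0, 60.7 and 66.7 FPKM in wild type. In bulk leaf tissue, fewer cells that express a gene and less of its RNA per cell cannot be told apart.

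**Figure D1:**
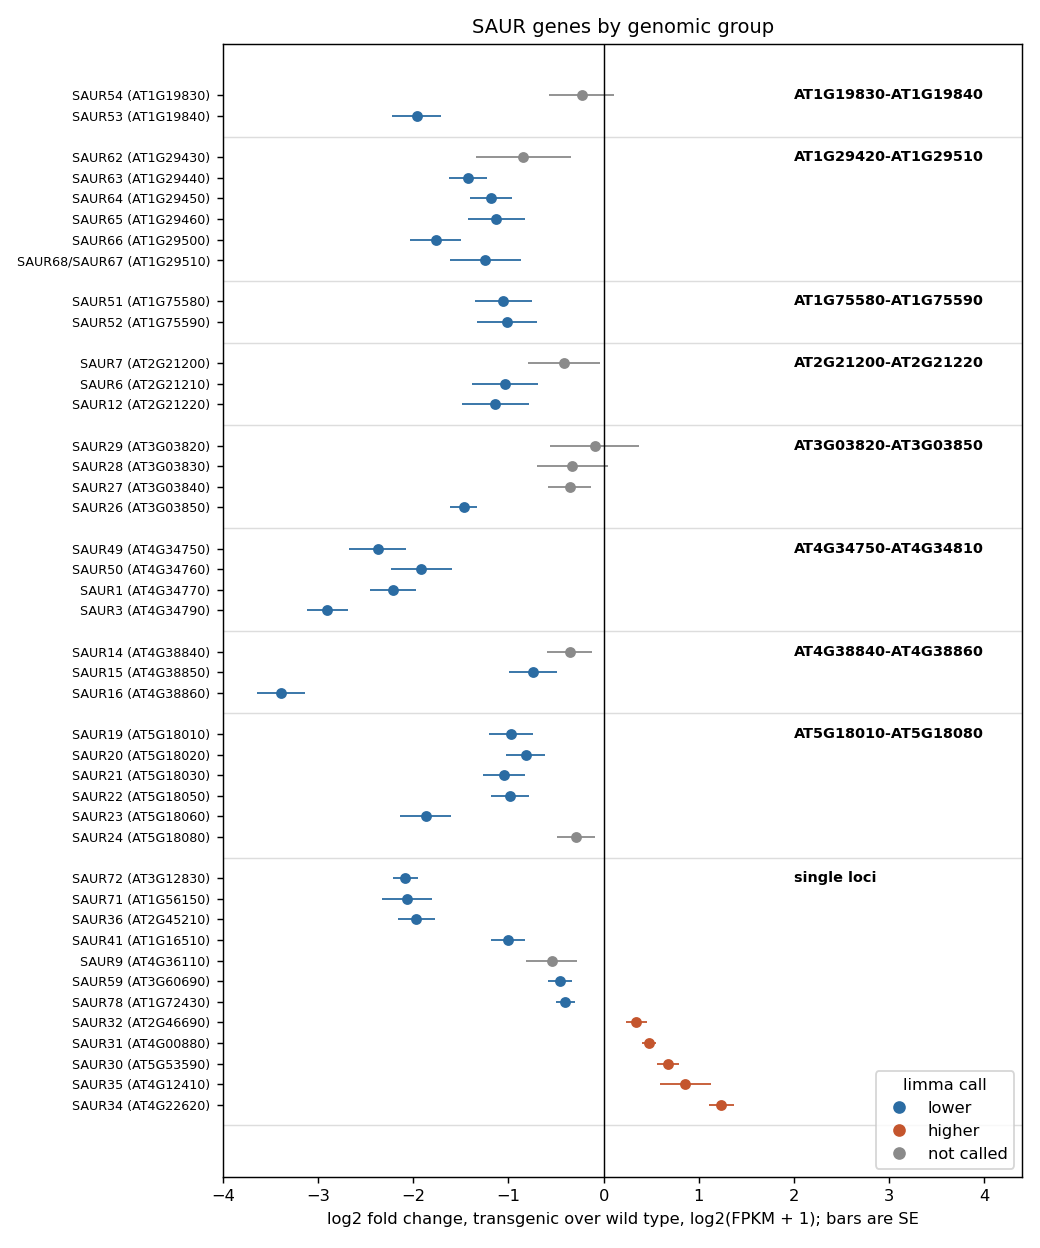
Log2 fold change (x axis, transgenic over wild type on log2(FPKM + 1), bars are limma's SE) of the 42 expressed SAUR genes, arranged down the page by tandem group and coloured by call. The 28 genes called lower lie in every tandem group shown and among the single loci, and the 5 called higher are all single loci.

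The scale of the deposited values differs between groups and bears on these counts. It also bears on the sums and ratios of FPKM given here, which were not rescaled. All FPKM in a sample summed to between 1261802 and 1278449 in the lines and to between 970376 and 982620 in wild type. After rescaling each sample to the same total (TPM), the median of all genes moved to -0.31 and that of the SAUR genes to -1.23, with 32 SAUR genes lower and 2 higher. SAUR34 and SAUR30 were the 2 that stayed higher. Over all genes, 2676 were lower and 4273 higher as deposited, 8363 lower and 1907 higher in TPM, and 3448 lower and 3270 higher after quantile normalization, where 25 SAUR genes were lower and 4 higher. Marker genes of leaf and other cell types were summed as well. The summed FPKM of 4 leaf mesophyll markers was 81616 to 83834 in the lines and 52404 to 57990 in wild type. That of 4 shoot meristem markers was 13.4 to 16.1 in the lines and 36.6 to 38.5 in wild type, with WUSCHEL at 0 in every sample and CLV3 above 0 only in line 3. For 2 epidermal markers it was 40.9 to 43.7 in the lines and 44.6 to 51.2 in wild type. Of these, ATML1 was called lower (log2 fold change -0.27), while PDF2 overlapped between groups and was not called (-0.09). For 2 root markers the sum was 68.4 to 75.0 in the lines and 107.6 to 114.8 in wild type. Nearly all of it was PYK10, and THAS1 was near 0, with means of 0.086 FPKM in the lines and 0.022 FPKM in wild type. The sums overlapped between groups for 5 flower markers, at 4.19 to 11.1 in the lines and 9.62 to 11.2 in wild type, and for 3 guard cell markers, at 14.5 to 18.0 in the lines and 13.0 to 15.4 in wild type. The part in the SAUR differences of the scale and of the marker sums that did not overlap was not tested.

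Calls were counted by genomic position. Loci on the same chromosome whose locus numbers differ by at most 50 were put in the same tandem group, which gave 9 groups with 36 of the 60 loci and left 24 single loci. In the tandem groups, 30 loci were expressed, of which 22 fell, 0 rose and 8 were not called, with all 30 log2 fold changes negative and a median of -1.05. In TPM, 25 of these 30 fell and 0 rose. Among single loci, 12 were expressed, of which 6 fell, 5 rose and 1 was not called. These are counts of the same fit, and the difference between tandem and single loci was not tested. In tandem groups, SAUR1, SAUR3, SAUR12, SAUR15, SAUR16, SAUR53 and SAUR54 reached the limit only through wild type, as did SAUR36 among single loci. The limit favoured a fall at these loci, and all but SAUR54 were called lower. Coding identity within a group was 87.7% to 95.2% in the SAUR19 to SAUR24 group and 40.4% for the pair AT1G75580 and AT1G75590, so the groups hold both close copies and distant relatives.

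To show what the upstream regions of genes that fell, were not called or rose look like, the 250 bases before the RefSeq gene start are printed for 5 loci, 5′ to 3′ on the gene's strand, from the TAIR10.1 assembly. Capitals mark the E-box CATGTG, on either strand, and on the gene's strand the TATA-box word TATAAA, along with the auxin response word TGTCTC on either strand. The loci include SAUR3 (chr4:16594112-16594361, plus strand) and SAUR16 (chr4:18129987-18130236, plus strand), which had the largest falls. Also printed are SAUR26 (chr3:982807-983056, plus strand), which fell, and SAUR29 (chr3:977475-977724, minus strand) of the same tandem group, which was not called. The last is SAUR34 (chr4:11907105-11907354, plus strand), which rose most.
SAUR3: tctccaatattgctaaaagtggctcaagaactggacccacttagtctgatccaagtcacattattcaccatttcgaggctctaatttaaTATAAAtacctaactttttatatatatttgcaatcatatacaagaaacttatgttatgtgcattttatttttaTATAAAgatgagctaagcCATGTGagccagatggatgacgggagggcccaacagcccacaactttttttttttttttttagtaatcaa
SAUR16: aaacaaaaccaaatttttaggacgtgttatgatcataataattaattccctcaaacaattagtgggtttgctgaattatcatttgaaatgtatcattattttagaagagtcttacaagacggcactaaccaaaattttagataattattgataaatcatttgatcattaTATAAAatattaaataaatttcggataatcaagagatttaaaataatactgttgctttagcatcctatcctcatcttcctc
SAUR26: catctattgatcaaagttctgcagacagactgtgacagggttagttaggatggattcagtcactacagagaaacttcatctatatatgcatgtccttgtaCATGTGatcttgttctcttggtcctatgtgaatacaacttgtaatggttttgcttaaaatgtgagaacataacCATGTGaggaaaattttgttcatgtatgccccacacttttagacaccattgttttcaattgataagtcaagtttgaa
SAUR29: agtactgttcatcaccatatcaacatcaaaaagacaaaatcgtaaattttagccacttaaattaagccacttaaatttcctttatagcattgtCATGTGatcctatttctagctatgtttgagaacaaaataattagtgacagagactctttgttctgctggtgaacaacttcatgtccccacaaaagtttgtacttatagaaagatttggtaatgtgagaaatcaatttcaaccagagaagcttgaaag
SAUR34: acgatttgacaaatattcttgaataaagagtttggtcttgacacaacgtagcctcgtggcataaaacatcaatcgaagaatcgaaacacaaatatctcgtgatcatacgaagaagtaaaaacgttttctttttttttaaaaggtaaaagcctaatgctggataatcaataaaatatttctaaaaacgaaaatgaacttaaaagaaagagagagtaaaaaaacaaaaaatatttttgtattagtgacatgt

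The upstream window of SAUR26 held CATGTG at positions -150 and -77, counted from the gene start, that of SAUR3 at -70 and that of SAUR29 at -157, while those of SAUR16 and SAUR34 held none. Over the 42 expressed SAUR genes, 20 windows (47.6%) held this word on either strand, beside 11.1% of the windows of 27443 protein-coding genes. It was found in 14 of 28 genes that fell, in 0 of 5 that rose and in 6 of 9 that were not called. By position it was found in 19 of 30 loci in tandem groups and in 1 of 12 single loci. How similar the windows are to each other was not tested. All 6 expressed loci of the AT1G29420 group and all 4 of the AT3G03820 group carried it, as did 3 of 6 in the SAUR19 to SAUR24 group and 0 of 2 in the AT1G19830 group. The auxin response word TGTCTC was found in 16.7% of SAUR windows and 10.9% of all windows, and its variant TGTCGG in 4.76% and 4.16%. The G-box CACGTG was found in 2.38% and 6.49%. The word TATAAA was found on the gene's strand in 40.5% of SAUR windows and in 32.9% of all windows. These words are matches of letters in a fixed window and say nothing of binding.

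The lowest levels in the lines relative to wild type were found in the group AT4G34750 to AT4G34810 (chr4:16577180-16595153 for its expressed loci in TAIR10.1). All 4 expressed loci fell, with log2 fold changes of -2.90 to -1.91, while AT4G34800 and AT4G34810 did not reach a mean of 1 FPKM. Their summed FPKM was 6.88, 4.08 and 9.28 in lines 1 to 3, against 40.02, 43.1 and 45.8 in wild-type replicates 1 to 3, a ratio of 0.157. SAUR3 (AT4G34790), whose upstream window opens the sequences above, had 0, 0 and 0.600 FPKM in lines 1, 2 and 3, against 7.82, 7.11 and 8.36 FPKM in the wild-type replicates. It was listed at 0 in lines 1 and 2 and the groups did not overlap (log2 fold change -2.90, SE 0.218, limma adjusted p = 7.27e-06).

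SAUR50 (AT4G34760), known from light-induced opening of cotyledons, had the highest level of the group, with 3.83, 1.83 and 7.50 FPKM in lines 1, 2 and 3, against 16.7, 18.6 and 17.0 FPKM in wild type. The lines differed among themselves more than the wild-type replicates did, and line 3 was nearest to wild type without reaching it (log2 fold change -1.91, SE 0.323, limma adjusted p = 0.00126). SAUR49 (AT4G34750), an activator of leaf senescence, and SAUR1 (AT4G34770) had log2 fold changes of -2.37 and -2.21. All 4 stayed called under every alternative tried.

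In the group AT4G38840 to AT4G38860 (chr4:18124978-18131284), adjacent loci differed widely. SAUR16 (AT4G38860), which with SAUR50 takes part in light-induced cotyledon opening, had 0.122, 0.291 and 1.34 FPKM in lines 1, 2 and 3, against 14.4, 14.7 and 15.1 FPKM in wild type. All 3 lines were far below the narrow wild-type range, and this was the largest fall among SAUR genes (log2 fold change -3.39, SE 0.252, limma adjusted p = 6.76e-06). SAUR14 (AT4G38840), the most abundant of the group, had 22.2, 15.7 and 11.5 FPKM in the lines, against 27.9, 16.4 and 19.3 FPKM in wild type. Its groups overlapped through line 1 and it was not called (log2 fold change -0.36, SE 0.237, limma adjusted p = 0.269), although it was called lower in TPM at an adjusted p of 0.025. SAUR15 (AT4G38850), the auxin-induced gene first known as SAUR-AC1, fell with a log2 fold change of -0.74 (limma adjusted p = 0.0404) and lost the call without line 1, line 2, wild-type replicate 1 or wild-type replicate 3 in turn, at adjusted p of 0.0926 to 0.154, and after quantile normalization, at -0.58 (adjusted p = 0.101).

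The SAUR19 to SAUR24 group (AT5G18010 to AT5G18080, chr5:5962773-5984308) encodes closely related proteins that promote cell expansion by inhibiting PP2C.D phosphatases. Its 6 coding sequences were 87.7% to 95.2% identical in pairs. All 6 loci were expressed and 5 fell. SAUR23 (AT5G18060) had 1.97, 4.17 and 4.37 FPKM in lines 1, 2 and 3, against 12.5, 21.7 and 12.2 FPKM in wild type. Line 1 was lowest, wild-type replicate 2 stood above the other wild-type samples and the groups did not overlap (log2 fold change -1.87, SE 0.272, limma adjusted p = 0.000501). The others that fell, SAUR19, SAUR20, SAUR21 and SAUR22, had log2 fold changes of -1.05 to -0.82.

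SAUR24 (AT5G18080) had the highest level in this group and was not called, with 17.1, 21.7 and 17.2 FPKM in lines 1, 2 and 3, against 26.9, 28.3 and 15.8 FPKM in wild type. Wild-type replicate 3 lay below all 3 lines, so the groups overlapped (log2 fold change -0.29, SE 0.199, limma adjusted p = 0.278). Without that replicate SAUR24 was called lower, at a log2 fold change of -0.55 and an adjusted p of 0.0102, and it was also called in TPM, at -0.65. SAUR19 and SAUR24 are 95.2% identical in their coding sequence, and how the authors assigned reads between such copies is not given in the sources used here. Exact 50-base words of the gene found elsewhere in the genome made up 18.5% of SAUR19, 7.11% of SAUR24 and 2.63% of SAUR23.

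The group AT1G29420 to AT1G29510 (chr1:10302585-10323239 for its expressed loci) holds SAUR63 and its relatives, which promote elongation of hypocotyls and stamen filaments. Of 8 loci, 6 were expressed and 5 of these fell, with log2 fold changes of -1.77 to -1.13. SAUR66 (AT1G29500) had both the largest fall and the highest level, with 2.12, 2.18 and 0.840 FPKM in lines 1, 2 and 3, against 10.8, 7.95 and 5.79 FPKM in wild type. Line 3 and wild-type replicate 3 were the lowest of their groups, and the groups did not overlap (log2 fold change -1.77, SE 0.265, limma adjusted p = 0.000616). SAUR62 (AT1G29430) ranged from 0.779 to 7.06 FPKM in the lines and from 3.51 to 8.23 FPKM in wild type. It was not called as measured (log2 fold change -0.84, limma adjusted p = 0.214) and was called without line 3, its highest line, at -1.47 (adjusted p = 0.00976).

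Several loci of this group share sequence with other places in the genome. Exact 50-base words found elsewhere made up 33.9% of AT1G29510, 27.1% of AT1G29440 and 23.2% of AT1G29430, and AT1G29510 lost its call without line 1, line 3, wild-type replicate 1 or wild-type replicate 3, at adjusted p of 0.0714 to 0.0953, and with no filter and without the variance trend, at adjusted p of 0.0573 and 0.0559. SAUR65 (AT1G29460) lost its call without wild-type replicate 2, at an adjusted p of 0.054. Among all 42 expressed SAUR genes, 11 shared such words with another place in the genome. Of the 31 that shared none, 20 fell and 4 rose. Another annotated gene overlapped 5 of the 42, and of the other 37, 25 fell and 4 rose.

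The SAUR26 to SAUR29 group (AT3G03820 to AT3G03850, chr3:976715-983768), known for temperature-dependent growth of the rosette, had the smallest share of calls among groups with more than 2 expressed loci. SAUR26 (AT3G03850) fell, with 1.37, 1.70 and 1.67 FPKM in lines 1, 2 and 3, against 5.95, 6.09 and 6.37 FPKM in wild type. The values of each group lay close together and the groups were well apart (log2 fold change -1.47, SE 0.140, limma adjusted p = 3.45e-05). SAUR29 (AT3G03820) had 6.09, 26.7 and 10.7 FPKM in the lines, against 21.7, 7.99 and 12.8 FPKM in wild type. Line 2 was the highest and line 1 the lowest of all 6 samples, so the groups overlapped fully (log2 fold change -0.10, SE 0.471, limma adjusted p = 0.890). Its sign turned to 0.35 without line 1 and to 0.25 without wild-type replicate 1. SAUR27 and SAUR28 had log2 fold changes of -0.36 and -0.33 and were not called, and SAUR27 was called lower without line 1, at -0.61 (adjusted p = 0.0249), and in TPM. The 4 coding sequences were 77.7% to 86.3% identical in pairs.

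**Figure D2:**
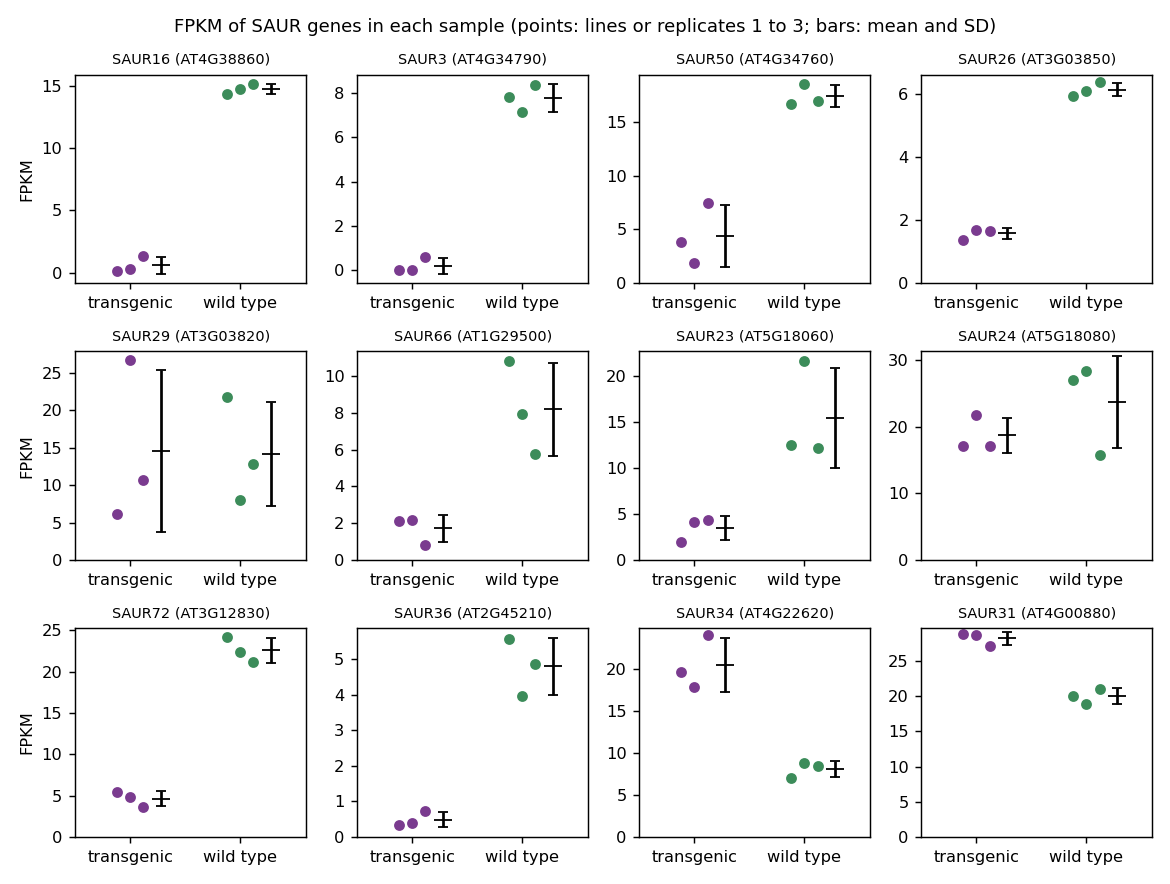
FPKM (y axis) of 12 SAUR genes in each sample, transgenic lines 1 to 3 left and wild-type replicates 1 to 3 right in each panel, with the mean and SD as black bars. Lines lie below wild type without overlap for SAUR16, SAUR3, SAUR50, SAUR26, SAUR66, SAUR23, SAUR72 and SAUR36, overlap with it for SAUR29 and SAUR24, and lie above it for SAUR34 and SAUR31.

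In the groups of 2 or 3 loci, several calls were lost when any 1 of several samples was left out. SAUR6 (AT2G21210) was the most abundant locus of the group AT2G21200 to AT2G21220 (chr2:9083906-9090052), with 3.24, 11.2 and 9.56 FPKM in lines 1, 2 and 3, against 12.4, 18.7 and 16.9 FPKM in wild type. Line 1 was far below the other lines, and line 2 came close to wild-type replicate 1 (log2 fold change -1.04, SE 0.350, limma adjusted p = 0.0411). The call was lost without wild-type replicate 2 or 3, at adjusted p of 0.123 and 0.119, and also with no filter and without the variance trend. SAUR12 (AT2G21220) was just inside the limit at a mean of 1.34 FPKM, with 0, 1.08 and 0.302 FPKM in the lines, against 3.46, 2.10 and 1.09 FPKM in wild type. Line 2 and wild-type replicate 3 nearly met (log2 fold change -1.14, SE 0.349, limma adjusted p = 0.0279). The call was lost without line 1, line 3, wild-type replicate 1 or wild-type replicate 2, at adjusted p of 0.0708 to 0.107, and after quantile normalization, at an adjusted p of 0.0551. SAUR7 (AT2G21200) overlaps SAUR6 and was not called.

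SAUR53 (AT1G19840), a promoter of organ growth, had 0.245, 0.191 and 1.05 FPKM in lines 1, 2 and 3, against 5.27, 5.37 and 3.55 FPKM in wild type. Its lines were all below wild type (log2 fold change -1.97, SE 0.255, limma adjusted p = 0.000254). SAUR54 (AT1G19830), of the same tandem group, was the expressed locus nearest the limit, with a mean of 1.07 FPKM. It had 0.868, 1.87 and 0.138 FPKM in the lines, against 0.778, 1.07 and 1.68 FPKM in wild type, with full overlap (log2 fold change -0.23, SE 0.340, limma adjusted p = 0.625). Without line 3 its sign turned, at 0.11.

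SAUR51 (AT1G75580), on chr1:28377377-28378310, had 1.06, 3.80 and 2.41 FPKM in lines 1, 2 and 3, against 7.72, 4.58 and 5.18 FPKM in wild type. Line 2 came nearest to wild type (log2 fold change -1.05, SE 0.300, limma adjusted p = 0.0202). It was not called without wild-type replicate 1 or 3, at adjusted p of 0.0788 and 0.0521. SAUR52 (AT1G75590) beside it fell with a log2 fold change of -1.01 (limma adjusted p = 0.0305) and lost the call without line 1, line 3, wild-type replicate 1 or wild-type replicate 3, at adjusted p of 0.0533 to 0.111. The SAUR52 call was also lost with a pseudocount of 0.1, with no filter, after quantile normalization and without the variance trend, at adjusted p of 0.0508 to 0.0647.

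Single loci that fell included some of the clearest differences. SAUR72 (AT3G12830, chr3:4078651-4079627) had 5.40, 4.78 and 3.63 FPKM in lines 1, 2 and 3, against 24.2, 22.4 and 21.1 FPKM in wild type. Its groups were far apart beside their spread (log2 fold change -2.08, SE 0.133, limma adjusted p = 2.58e-06). SAUR71 (AT1G56150, chr1:21017311-21018122), its closest relative in the list at 64.8% coding identity, had 2.65, 5.81 and 2.89 FPKM in the lines, against 13.3, 19.5 and 23.1 FPKM in wild type. Wild-type replicate 1 was the lowest of its group and still more than any line (log2 fold change -2.06, SE 0.261, limma adjusted p = 0.000213).

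SAUR36 (AT2G45210, chr2:18641563-18642739), a promoter of leaf senescence, had 0.338, 0.377 and 0.737 FPKM in lines 1, 2 and 3, against 5.57, 3.97 and 4.85 FPKM in wild type. All lines were under 1 FPKM and all wild-type values well over it (log2 fold change -1.97, SE 0.194, limma adjusted p = 4.35e-05). SAUR41 (AT1G16510, chr1:5644572-5645443), which modulates cell expansion, had 1.08, 1.89 and 1.18 FPKM in the lines, against 3.49, 3.72 and 3.98 FPKM in wild type. Line 2 was the highest line and remained below wild type (log2 fold change -1.003, SE 0.181, limma adjusted p = 0.00188).

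SAUR78 (AT1G72430, chr1:27264602-27265806), whose protein interacts with ethylene receptors, had the highest FPKM of the listed loci. It had 87.0, 79.0 and 67.7 FPKM in lines 1, 2 and 3, against 98.0, 97.0 and 114 FPKM in wild type. The groups did not overlap but the difference was small (log2 fold change -0.40, SE 0.098, limma adjusted p = 0.00953). SAUR59 (AT3G60690) also fell modestly, at -0.46 (limma adjusted p = 0.019), and lost the call without line 2, line 3, wild-type replicate 1 or wild-type replicate 3, at adjusted p of 0.0561 to 0.070. SAUR9 (AT4G36110) was the expressed single locus that was not called, at -0.55 (limma adjusted p = 0.143), though in TPM it was called lower at -0.80 (adjusted p = 0.0285).

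The 5 genes that rose were SAUR30, SAUR31, SAUR32, SAUR34 and SAUR35, all single loci, and only part of them kept the call on another scale. SAUR34 (AT4G22620, chr4:11907355-11908357) had 19.6, 17.8 and 24.0 FPKM in lines 1, 2 and 3, against 7.04, 8.82 and 8.40 FPKM in wild type. Each line was above each wild-type replicate, the mean was 2.53 times that of wild type (log2 fold change 1.24, SE 0.130, limma adjusted p = 6.46e-05). Its call held under every alternative tried. SAUR35 (AT4G12410, chr4:7342800-7343731), its closest relative at 72.9% coding identity, had 10.2, 6.89 and 4.59 FPKM in the lines, against 4.03, 2.24 and 4.08 FPKM in wild type. Line 3 was only just above wild type (log2 fold change 0.86, SE 0.269, limma adjusted p = 0.0301). Its call was lost without line 1, line 2 or wild-type replicate 2, at adjusted p of 0.0668 to 0.104, and in TPM, at 0.54 (adjusted p = 0.0991). It was also lost with no filter and without the variance trend, at adjusted p of 0.0643 and 0.0579.

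SAUR30 (AT5G53590, chr5:21771811-21772794) had 17.0, 19.7 and 17.7 FPKM in lines 1, 2 and 3, against 11.9, 9.14 and 12.05 FPKM in wild type. The groups were apart (log2 fold change 0.68, SE 0.120, limma adjusted p = 0.00171). It kept the call under every alternative, with 0.32 in TPM. SAUR31 (AT4G00880, chr4:366373-367274) had 28.9, 28.7 and 27.2 FPKM in the lines, against 20.04, 18.9 and 21.1 FPKM in wild type. Both groups had little spread (log2 fold change 0.48, SE 0.076, limma adjusted p = 0.000878). This call was lost in TPM, at 0.11 (adjusted p = 0.220).

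SAUR32 (AT2G46690, chr2:19180705-19181600), which affects bending of the apical hook, had 29.5, 25.9 and 22.8 FPKM in lines 1, 2 and 3, against 18.0, 21.7 and 21.1 FPKM in wild type. Line 3 lay just above the highest wild-type replicate (log2 fold change 0.34, SE 0.111, limma adjusted p = 0.0342), while in TPM the log2 fold change was -0.02. SAUR32 also lost the call without line 1, line 2, wild-type replicate 1 or wild-type replicate 3, at adjusted p of 0.0623 to 0.115, and with the replicate block, at an adjusted p of 0.0551. Quantile normalization, median-of-ratios scaling, no filter and no variance trend also ended the call, at adjusted p of 0.0565 to 0.124, so that no other scaling tried kept it.

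Calls were also set beside sequence relatedness, as a description made after the values were seen. For each of the 5 genes that rose, the locus with the most similar coding sequence in the list was also one that rose. SAUR30 and SAUR32 were closest to SAUR31 (58.0% and 68.4% identity), SAUR31 to SAUR32, and SAUR34 and SAUR35 to each other. For the 28 that fell, the closest relative fell in 18, was not called in 5 and was not tested in 5. For the 9 that were not called, it fell in 5, was not called in 2 and was not tested in 2. Beside these counts, 28 of all 42 fell. The closest relative lay in the same tandem group for 16 of the 42 loci and elsewhere for 26. SAUR16 and SAUR12, on different chromosomes, were 85.5% identical and both fell. All 42 expressed loci had a single coding exon, and the median coding length was 429 bases in the 5 that rose, 346.5 in the 28 that fell and 291 in the 9 that were not called.

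The 28 genes that fell summed to 155.2, 164.6 and 145.4 FPKM in lines 1, 2 and 3, lowest in line 3. In wild-type replicates 1, 2 and 3 they summed to 341.0, 352.0 and 363.8 FPKM. Each line was 1 sample, and a difference between lines was not tested. Among the 28 genes that fell, line 1 had the lowest value in 14, line 3 in 7 and line 2 in 6, with 1 tie. Line 2 had the highest of the 3 values in 12 of the 28, line 3 in 10 and line 1 in 6. Among the 5 that rose, line 1 was highest in 3.

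Of the 15 loci below the limit, AT1G79130 (SAUR40) was listed at 0 in every sample, and of the others the transgenic mean was lower in 10 and higher in 4. The highest single value among them was 1.80 FPKM. They were not tested because their means were under 1 FPKM. SAUR76 (AT5G20820) was just outside the limit at a mean of 0.788 FPKM, with 0, 0.600 and 1.00 FPKM in lines 1, 2 and 3, against 1.16, 1.03 and 0.933 FPKM in wild type. SAUR8 (AT2G16580), next at 0.701 FPKM, had 0.804, 0.285 and 0.297 FPKM in the lines, against 1.80, 0.352 and 0.661 FPKM in wild type. Both overlapped between groups. The annotation names 18 further SAUR loci outside the list, of which 5 were tested, 2 fell and 0 rose. SAUR48 (AT3G09870) had 7.62, 8.10 and 7.81 FPKM in the lines, against 12.6, 13.1 and 17.0 FPKM in wild type (log2 fold change -0.77, limma adjusted p = 0.000914). SAUR44 (AT5G03310) was listed at 0 in all 3 lines, against 2.81, 1.95 and 2.23 FPKM in wild type.

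The genes around the tandem groups had calls in both directions. Around and inside the 8 groups with expressed loci, 90 other protein-coding genes were counted, taking 5 on each side and those between the SAUR genes, and 59 of them were tested. Of these, 15 were lower and 16 higher, with a median log2 fold change of 0.05, beside 15.7% lower and 25.0% higher among all genes tested. In TPM 34 were lower and 5 higher, with a median of -0.32 beside the shift of -0.31 over all genes. Around the AT4G34750 group, where all 4 expressed SAUR genes fell, 5 of 9 tested neighbours rose and 1 fell as deposited, and 2 rose and 5 fell in TPM. Over all groups, neighbours as deposited ran from -2.31 (AT4G38820, beside the AT4G38840 group) to 1.09 (AT1G19770, beside the AT1G19830 group), both called.

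**Figure D3:**
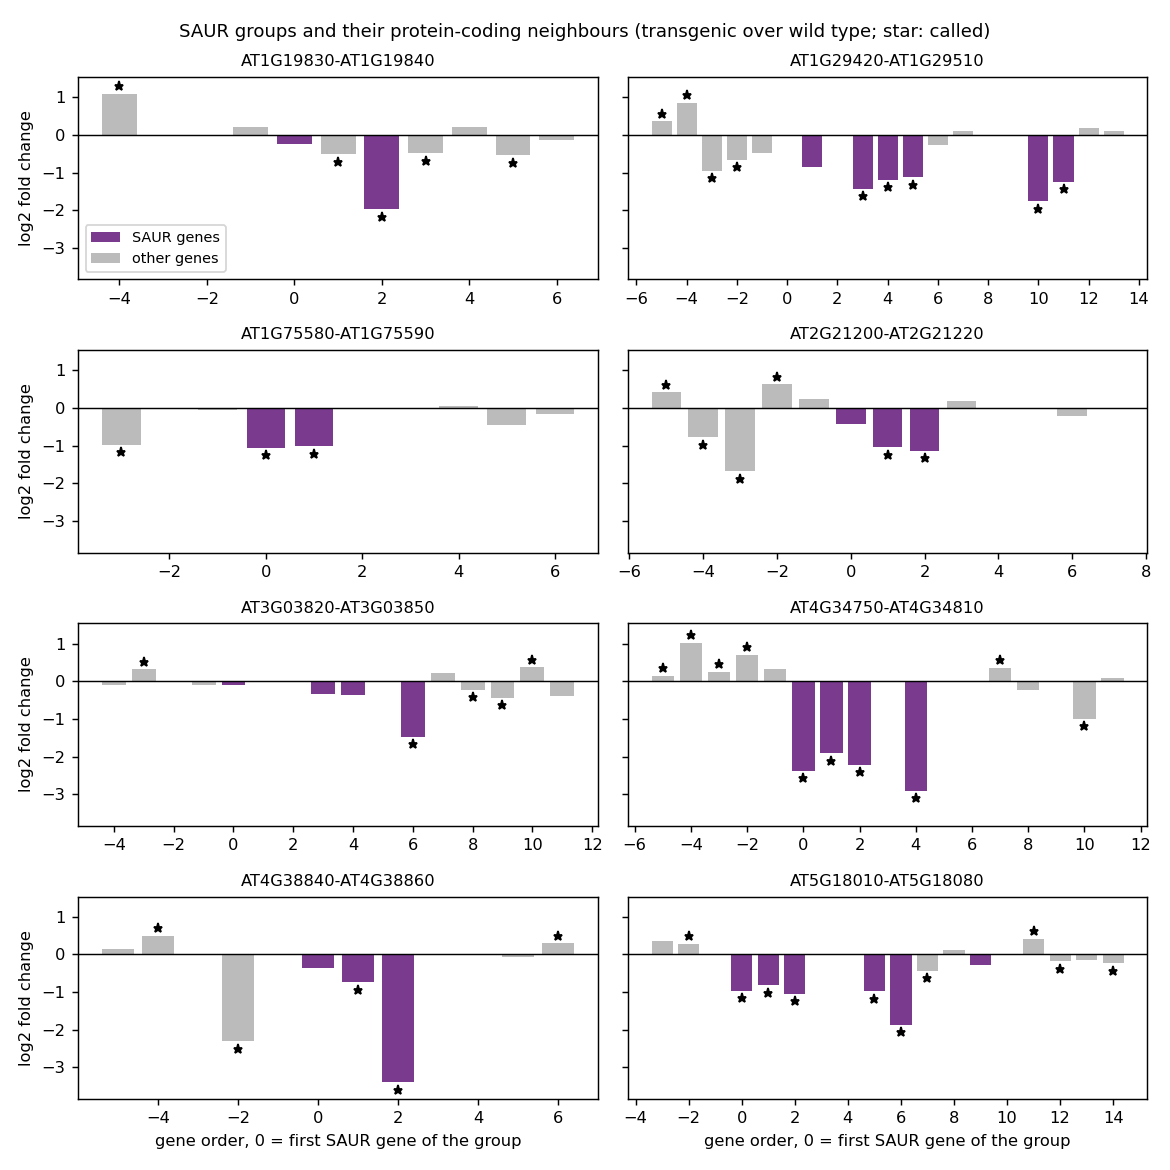
Log2 fold change (y axis, transgenic over wild type) of tested genes in gene order along the chromosome (x axis, 0 is the first SAUR gene), for the 8 tandem groups with expressed loci, SAUR genes in purple, other genes in grey, stars for called genes. SAUR bars point down in every panel, while the 59 tested neighbours include 15 called lower and 16 called higher as deposited (34 and 5 in TPM).

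Partners and regulators of the SAUR proteins were looked at in lists compiled from textbook knowledge. Beside the counts that follow, 15.7% of all genes tested were lower and 25.0% higher as deposited. In TPM, 8363 of the 17093 genes tested were lower and 1907 higher. Among PP2C.D phosphatases, the proteins that SAURs inhibit, 8 of 9 were tested, 3 fell and 3 rose, with a median log2 fold change of -0.07 (in TPM 5 fell and 3 rose). APD7 (AT5G02760) had 0.386, 0.640 and 1.51 FPKM in lines 1, 2 and 3, against 4.69, 6.23 and 6.31 FPKM in wild type (log2 fold change -1.91, limma adjusted p = 0.000201). APD5 (AT4G33920) rose by 1.00 and APD9 (AT5G66080) by 0.73 on the log2 scale. APD7 was lower in every line, without overlap, and both calls for higher levels held under every alternative tried.

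Of 11 plasma membrane proton pump genes, the pumps that PP2C.D phosphatases act on, 6 were tested, 3 fell and 1 rose, with a median log2 fold change of -0.15 (in TPM 5 fell and 1 rose). HA1 (AT2G18960) was the most abundant of the list, with means of 120 FPKM in the lines and 136 FPKM in wild type. It fell slightly (log2 fold change -0.17, limma adjusted p = 0.0481). HA2 (AT4G30190) had 30.4, 30.0 and 32.2 FPKM in the lines, against 47.4, 48.8 and 44.3 FPKM in wild type (log2 fold change -0.59, limma adjusted p = 0.000124). HA3 (AT5G57350) rose by 0.76. HA11 (AT5G62670) fell by 0.27 and lost the call without any one of 5 samples, all but wild-type replicate 3, at adjusted p of 0.0524 to 0.131, and with the replicate block, at an adjusted p of 0.0654.

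Auxin receptors and activating ARF transcription factors act upstream of SAUR transcription. All 11 auxin receptor and activating ARF genes were tested, and 8 fell and 1 rose, with a median log2 fold change of -0.53 (in TPM 9 fell and 0 rose). The receptor gene TIR1 (AT3G62980) had 30.5, 30.8 and 31.5 FPKM in lines 1, 2 and 3, against 72.1, 68.3 and 61.0 FPKM in wild type, without overlap (log2 fold change -1.09, limma adjusted p = 3.46e-06). AFB1 (AT4G03190) fell by 1.53 and AFB3 (AT1G12820) by 0.96. The gene that rose was ARF19 (AT1G19220), by 0.53, while AFB4 and ARF7 were not called. Among other early auxin response genes, of the Aux/IAA and GH3 families, 14 of 17 were tested, 9 fell and 2 rose, with a median of -0.40 (in TPM 10 fell and 2 rose). IAA4, GH3.6 and GH3.2 had log2 fold changes of -1.91, -1.87 and -0.93. The 2 that rose were IAA19, by 0.80, and IAA17, by 0.69. These SAUR, Aux/IAA and receptor values come from the same 6 samples.

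Of 13 PIF, BZR, HBI1 and DELLA genes, which set SAUR transcription in response to light, brassinosteroid and gibberellin, 12 were tested, 3 fell and 4 rose, with a median log2 fold change of 0.08 (in TPM 6 fell and 2 rose, with a median of -0.29). HBI1 (AT2G18300), a promoter of cell elongation, had 22.2, 21.4 and 20.1 FPKM in lines 1, 2 and 3, against 68.5, 65.5 and 61.0 FPKM in wild type (log2 fold change -1.57, limma adjusted p = 3.6e-07). PIF1 (AT2G20180) fell by 0.86, while PIF7 (AT5G61270), which drives auxin responses to shade, rose by 0.83. PIF4 and PIF5 were not called (log2 fold changes -0.07 and -0.02). Of the DELLA genes, RGA1, RGL1 and RGL3 were called higher as deposited, at 0.27, 0.44 and 0.77, and GAI was called lower, at -0.75. The counts and the median of this list pool the DELLA genes with the other regulators.

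**Figure D4:**
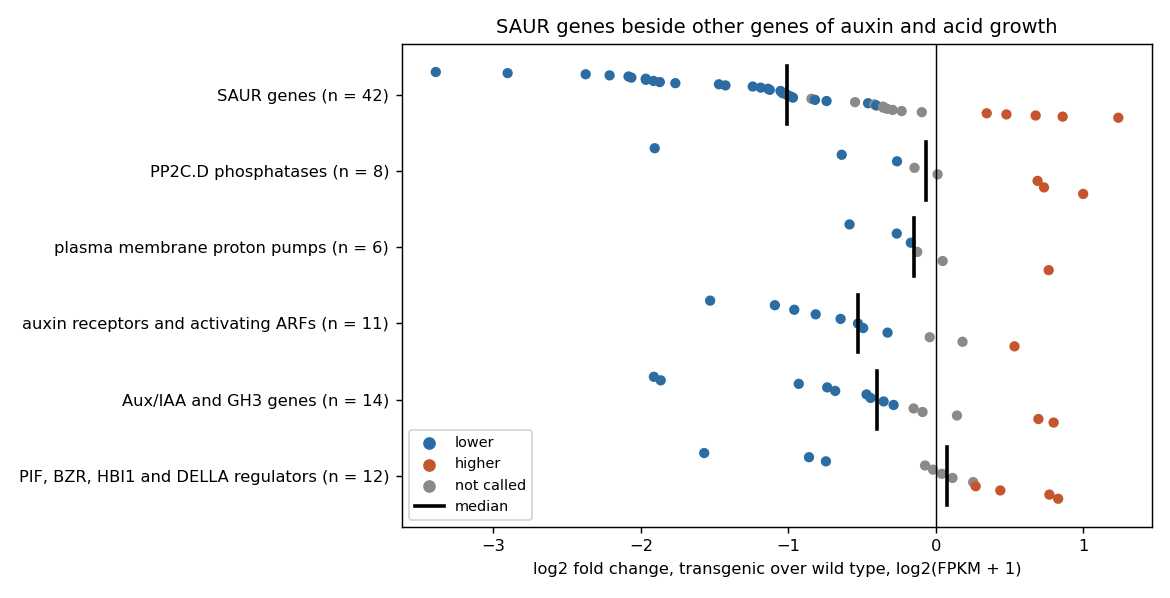
Log2 fold change (x axis, transgenic over wild type) of each tested gene of the SAUR family and of 5 lists of related genes (rows), coloured by call, with the median as a black bar. The SAUR median is -1.01, and the medians of the other lists lie between -0.53 and 0.08.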

How the data were processed

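Leaf RNA was sequenced as polyadenylated RNA, per the labels' protocols. The deposited values are FPKM, made by the authors, in 1 table with a column per sample. The authors used TopHat2, DESeq and TAIR10, per the submitters' processing notes, with neither roles nor versions stated. Not given in the sources used here are the program that gave the FPKM, read strand and how reads that match several copies were treated. FPKM give no read numbers, so the absolute depth is unknown, and precision rests on the spread of 3 samples a group.

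Genes averaging 1 FPKM or more were compared by limma 3.58.1 (R 4.3.3, mean-variance trend, no covariate) on log2(FPKM + 1), with Benjamini-Hochberg adjustment over 17093 genes. Fold changes, transgenic over wild type, are on that scale and understate changes of low genes. On simulated data with the same number of genes and normal noise, log2 steps of 0.5, 1, 2 and -1 were recovered in 54%, 86%, 100% and 86% of changed genes. The changed genes were drawn only from those with a mean log2(FPKM + 1) above 2. Recovery was therefore not measured for lower genes, such as SAUR54 and SAUR12. Each step was given to 50 genes in the simulation, while 2676 genes were called lower and 4273 higher in the data. The adjustment for many tests thus differed, and the shares recovered do not measure recovery in the data.

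The SAUR loci, lists and rules were chosen with earlier results of these data known, and the comparison of closest relatives was added after the values were seen. Values in every sample are given for the largest change and the highest level of each tandem group, 5 single loci in each direction, 2 loci on either side of the limit, and 3 called genes with the largest change from each list (per-sample values for part of these). A few others are named after their values were seen. Coordinates, names, coding sequences and upstream windows come from RefSeq on TAIR10.1, joined by locus (57 SAUR loci matched). Coding identity is the share of identical columns in pairwise alignments (Biopython 1.88). Grouping by starts within 20 kb gave the same groups for 58 of 60 loci, parting AT1G19830 and AT1G19840. Same-numbered samples did not deviate together (correlations -0.035, 0.049 and -0.023).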

Additional observations from a re-analysis of the deposited data

How the results depend on the processing

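Across 15 alternatives, including leaving out each sample in turn, 20 of the 28 SAUR genes called lower and 2 of the 5 called higher stayed called in every alternative that tested them. The count of lower SAUR genes was 22 to 26 without 1 sample and that of higher ones 3 to 5. It was 3 higher without line 1 and 3 without line 2. With genes of a mean of at least 5 FPKM, 12 of 20 tested SAUR genes were lower and 5 higher. Their median log2 fold change was -0.64, beside -1.01 over the 42 expressed SAUR genes. All 5 SAUR genes called higher were above this limit, while many of those called lower were not. Among the 13015 genes then tested, 2035 were lower and 4096 higher. The higher count was 3 with no filter, 3 without the trend in limma and 2 in TPM, where all genes had 8363 lower and 1907 higher. The sign of SAUR32 (AT2G46690) turned to -0.019 in TPM. Leaving out 1 sample gave -0.63 to 0.35 for SAUR29 (AT3G03820), -0.71 to 0.042 for SAUR7 (AT2G21200) and -0.56 to 0.11 for SAUR54 (AT1G19830), none of them called. The causes of these shifts were not tested. The numbers in the titles are not shown to pair samples. With the replicate block, 28 SAUR genes were lower and 4 higher, and 2551 lower and 4155 higher over all genes. Of the expressed SAUR genes and the 3 genes followed from each list, SAUR32 and HA11 lost their call. Low FPKM of short, near-identical genes limit what 3 samples a group can show.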
